A study of Ovis aries with 16 samples.

Results

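The 10 genes that mark mesothelium, WT1, LRRN4, BNC1, UPK3B, UPK1B, MSLN, KRT19, KRT8, KRT18 and PRG4, were followed across visceral and subcutaneous fat of female sheep. They were chosen by name, with earlier results of these data known. Shares of all genes given beside them are thus for scale and do not test the set. All 10 of 10 were found among the 28524 genes of the deposited count table. The ewes were about 21 months old, had been kept from weaning on a maintenance diet and had their oestrous cycles synchronized with prostaglandin. Their mothers had been injected under the skin every day from gestation day 30 to day 90, of a term of 147 days. BPA mothers received bisphenol A, a plastics chemical with oestrogen-like activity, at 0.5 mg/kg/day in corn oil, and control mothers received the oil alone. Visceral fat was the mesenteric fat that surrounds the rumen at its ventral sac, and subcutaneous fat was sternal. Each of the 4 groups (visceral control, visceral BPA, subcutaneous control, subcutaneous BPA) holds 4 libraries of ribosome-depleted RNA, named here by the number in the title. The labels do not say that a number is 1 animal or that the mothers of a group all differ, so p-values measure the spread between these libraries.

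Mesothelium is the single layer of flat cells that covers the abdominal organs, the mesentery and the wall of the body cavities. It derives from mesoderm but carries keratins and tight junctions like an epithelium, and it secretes a lubricating fluid. Visceral fat pads lie beneath such a layer, while subcutaneous fat does not, and WT1-expressing mesothelium has been described as a source of part of the visceral fat cells in mice. In bulk tissue, fewer cells of a type and less RNA per cell cannot be told apart.

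Library totals were 6.77 to 14.31 M counts in visceral fat and 3.05 to 6.22 M in subcutaneous fat, so a low gene had more chance of a count in visceral libraries. Levels are given in CPM, the count scaled by depth, here by the library total after a TMM correction for differences in composition. Both depots had fat cell markers at high level (summed CPM of 10 adipocyte genes 17710 to 34680 in visceral and 12800 to 27780 in subcutaneous fat). Visceral BPA replicate 977 stood apart from the other visceral libraries. For the 10 genes, pooled depot ratios and visceral BPA differences that rest on it are given with and without it. Other results that include it are not all given both ways. The title number 977 also occurs in subcutaneous fat. Yet across genes the deviations of both 977 libraries from their group means correlated at only 0.0313, and neither matched the other best.

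The comparison of the depots in control ewes asks which of these genes separate visceral from subcutaneous fat. Of the 10 genes, 8 were higher in every visceral than in every subcutaneous control library, which holds for 7.74% of all genes with a count. Only KRT18 and PRG4 overlapped between the depots. After the filter on low counts, 8 of the 10 could be tested and 6 rose in visceral fat at an adjusted p under 0.05 (WT1, LRRN4, BNC1, UPK3B, KRT8 and KRT19; edgeR quasi-likelihood test, Benjamini-Hochberg over 14456 genes). The share of all tested genes called higher was 7.17%. A gene that passes this filter only through its visceral libraries had to differ, so the test was also run with no filter, where all 10 were tested. There, 8 of 10 were called higher, UPK1B and MSLN (adjusted p = 0.0344 and 0.00352) in addition, against 4.87% of all genes. UPK1B was not called in the fit of all 16 libraries (adjusted p = 0.107), by limma voom (0.0781, and 0.0535 with the replicate block) or without subcutaneous control 902, 928 or 931 (0.0702, 0.0751 and 0.0667).

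In BPA ewes, 6 of the 10 genes were higher in every visceral than in every subcutaneous library (WT1, LRRN4, BNC1, UPK3B, MSLN and KRT19), against 7.15% of all genes with a count. Only 4 of the 10 passed the filter, and 2 of these, WT1 and LRRN4, were called higher, against 5.13% of all genes. With no filter, 7 of 10 were called higher, against 3.6% of all genes. With visceral BPA replicate 984 left out, 7 of the 10 passed the filter and all 7 were called, against 3.39% of all genes, though genes that pass through the high visceral libraries alone had to differ. None of the 10 was called lower in visceral fat of either treatment, against 6.16% of all genes in controls and 3.94% in BPA ewes.

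**Figure D1:**
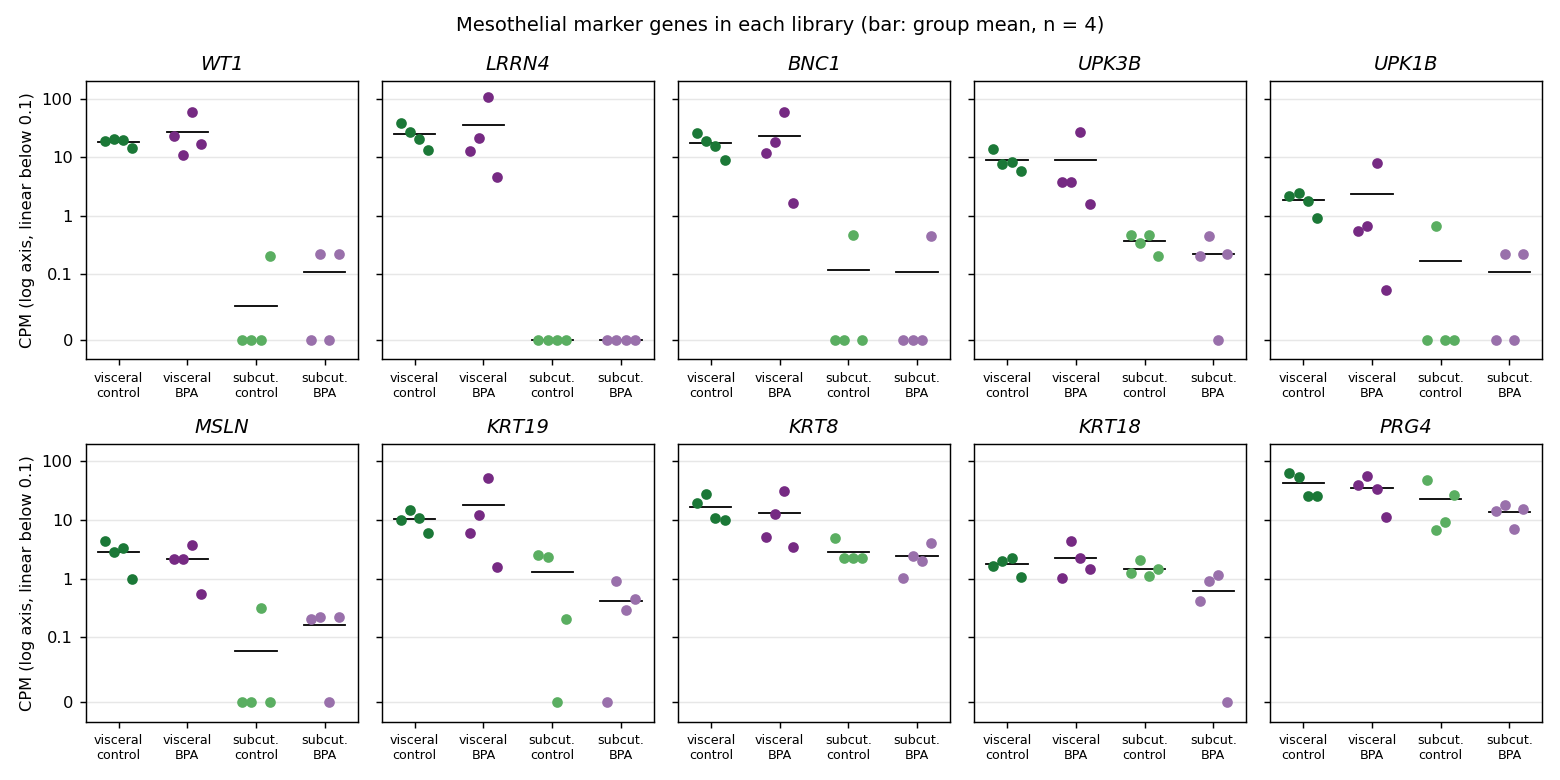
CPM of each of the 10 genes in every library (points) with the group mean (bar, n = 4), on an axis that is logarithmic above 0.1 CPM and linear below. LRRN4 is at 0 in all 8 subcutaneous libraries, whereas KRT18 and PRG4 overlap between depots.

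Among the transcription factors, WT1, a zinc finger protein needed for development of the kidney, the gonads and the mesothelium of several organs, separated the depots most clearly. It was at 19.0, 20.7, 19.6 and 14.28 CPM in visceral controls 902, 908, 924 and 928. In visceral BPA replicates 910, 918, 977 and 984 it was at 23.5, 11.0, 58.1 and 17.0 CPM. Subcutaneous fat held 3 WT1 counts in all, 1 each in control 931, BPA 922 and BPA 977, and the other 5 libraries had 0. With counts pooled over each group, the visceral level was 430.4 times the subcutaneous one in controls (95% interval 77.04 to 17020) and 212 times in BPA ewes (58.5 to 1752), or 148 times without visceral 977 (40.8 to 1226). These exact intervals, and the floors below, cover counting error only. WT1 was called in both depot comparisons (edgeR, adjusted p = 8.3e-06 in controls and 0.00138 in BPA ewes).

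BNC1 (basonuclin 1), a zinc finger factor of keratinocytes, germ cells and mesothelium, was at 25.7, 19.1, 15.5 and 8.86 CPM in visceral controls 902, 908, 924 and 928. Visceral BPA replicates 910, 918, 977 and 984 had 12.02, 18.0, 59.6 and 1.68 CPM. Subcutaneous fat had 3 BNC1 counts in control 928, 2 in BPA 977 and none elsewhere. The groups did not overlap in either treatment, although visceral BPA 984 came close to the subcutaneous level. The pooled depot ratio of BNC1 was 134 in controls (45.6 to 650.1) and 159 in BPA ewes (43.8 to 1314), where 404 of the 691 visceral counts were in 977, and 80.5 without 977 (22.1 to 667.7). BNC1 was called in controls (edgeR, adjusted p = 0.00023) but not by limma voom with the replicate number as a block (adjusted p = 0.0868).

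Of the surface proteins, LRRN4, a leucine-rich repeat membrane protein, was the only one of the 10 with no count in any subcutaneous library. It was at 37.8, 27.5, 20.5 and 13.4 CPM in visceral controls 902, 908, 924 and 928. In visceral BPA replicates 910, 918, 977 and 984 it was at 13.03, 21.0, 105 and 4.66 CPM. Against a floor of 3 counts over the subcutaneous group, LRRN4 was at least 192-fold higher in visceral fat of controls and at least 165-fold higher in that of BPA ewes. Of the 1075 visceral counts in BPA ewes 713 were in 977, and without it the bound was 67.7-fold. The edgeR test called LRRN4 in both (adjusted p = 0.000273 and 0.0196), but in BPA ewes not without subcutaneous replicate 922 (adjusted p = 0.0562). With limma voom without a block LRRN4 was called in neither (adjusted p = 0.0555 and 0.0759).

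MSLN encodes mesothelin, a surface protein held by a lipid anchor and a common marker of mesothelium and mesothelioma. Its visceral level was low, at 4.31, 2.78, 3.37 and 0.985 CPM in controls 902, 908, 924 and 928. BPA replicates 910, 918, 977 and 984 had 2.13, 2.16, 3.69 and 0.535 CPM. All 8 subcutaneous libraries together held 5 MSLN counts, at most 2 in one library. The pooled ratio was 33.3 in controls (9.02 to 277.7) and 10.7 in BPA ewes (3.52 to 53.2), or 8.41 without visceral 977 (2.70 to 42.3), and these intervals overlap.

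The uroplakins are membrane proteins best known from the plaques of the bladder lining, and UPK3B and UPK1B are also expressed in mesothelium. UPK3B was at 14.0, 7.58, 8.28 and 5.83 CPM in visceral controls 902, 908, 924 and 928. In visceral BPA replicates it was at 3.82, 3.75, 26.6 and 1.604 CPM in 910, 918, 977 and 984. Subcutaneous levels of UPK3B were 0 to 0.473 CPM, with at most 3 counts in a library. UPK3B rose in visceral fat of controls by 4.49 ± 0.44 (log2 fold change ± SE; edgeR, adjusted p = 0.00023). Its pooled ratio was 23.2 in controls (12.1 to 51.2) and 30.8 in BPA ewes (11.9 to 113.8), where 180 of the 268 visceral counts were in 977, and 12.3 without 977 (4.65 to 46.3).

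UPK1B, a tetraspanin partner of the UPK3 proteins, was much lower, at 2.16, 2.50, 1.81 and 0.903 CPM in visceral controls 902, 908, 924 and 928. Visceral BPA replicates ranged from 0.0764 CPM, a single count in 984, to 7.97 CPM in 977. Subcutaneous fat held 6 UPK1B counts, 4 of them in control 924. In BPA ewes the pooled UPK1B ratio was 15.2 (4.04 to 127.9), and 3.37 without 977 (0.749 to 30.9). The other uroplakins did not accompany these genes: UPK1A and UPK3A had 0 counts in all 8 visceral libraries and UPK2 had 1.

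The keratins of simple epithelia form filaments from 1 type II chain, here KRT8, and 1 type I chain, here KRT18 or KRT19. KRT8 was at 19.2, 27.5, 11.0 and 9.85 CPM in visceral controls 902, 908, 924 and 928, and at 2.20 to 4.83 CPM in subcutaneous controls. KRT8 rose in visceral fat of controls by 2.53 ± 0.40 on the log2 scale (edgeR, adjusted p = 0.00335). In BPA ewes it was at 5.17, 12.4, 31.0 and 3.51 CPM in visceral replicates 910, 918, 977 and 984 and at 1.03 to 4.03 CPM in subcutaneous fat. There the groups overlapped through visceral 984, and the KRT8 difference of 2.43 ± 0.70 missed the threshold (edgeR, adjusted p = 0.0552). It passed with no filter (adjusted p = 0.0346), in the fit of all 16 libraries (0.0165), with DESeq2 (0.00397) and after thinning to equal depth (0.0466). The edgeR replicate block gave 0.000919, but there the depot difference rests only on numbers 918 and 977, which occur in both depots. With DESeq2 size factors (edgeR, adjusted p = 0.0551) and by limma voom (0.221, and 0.119 with the block) the KRT8 difference was not called. Without visceral 977 it was 1.53 ± 0.54 (edgeR, adjusted p = 0.0805), and the pooled KRT8 ratio went from 4.61 (3.34 to 6.52) to 2.75 (1.957 to 3.95).

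KRT19 was at 9.97, 14.7, 10.7 and 5.99 CPM in visceral controls 902, 908, 924 and 928 and at 5.95, 12.1, 51.8 and 1.604 CPM in visceral BPA 910, 918, 977 and 984. In subcutaneous fat it ranged from 0 to 2.50 CPM, with 30 of its 38 counts in controls 902 and 924. The depots did not overlap in either treatment. In BPA ewes the pooled KRT19 ratio was 34.9 (16.8 to 87.1), and 14.4 without 977 (6.86 to 36.4). KRT19 rose in visceral fat of controls by 2.97 ± 0.69 on the log2 scale (edgeR, adjusted p = 0.0183), but was not called in the fit of all 16 libraries (adjusted p = 0.0524) or by limma voom with the block (adjusted p = 0.140).

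KRT18 is the usual partner of KRT8. Its visceral levels were 1.07 to 2.24 CPM in controls and 1.01 to 4.32 CPM in BPA ewes, and its subcutaneous levels were 1.10 to 2.03 and 0 to 1.16 CPM. The depots overlapped in both treatments, and the difference in controls was 0.24 ± 0.41 on the log2 scale (edgeR, adjusted p = 0.729). The pooled KRT18 ratio was 1.19 in controls (0.788 to 1.84) and 3.72 in BPA ewes (1.92 to 8.06), the latter resting on 10 subcutaneous counts. With no filter the KRT18 difference in BPA ewes was 1.88 ± 0.82 on the log2 scale (edgeR, adjusted p = 0.200). KRT8 and KRT18 were not tested against each other.

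PRG4 encodes lubricin, a secreted glycoprotein that lubricates joints and other sliding surfaces and is made by synovial lining as well as mesothelium. It had the most counts of the 10 genes in 6 of 8 visceral and all 8 subcutaneous libraries. Visceral controls 902, 908, 924 and 928 had 62.4, 54.2, 26.1 and 25.9 CPM, and subcutaneous controls 902, 924, 928 and 931 had 47.6, 6.78, 9.29 and 27.0 CPM. The groups overlapped, and the depot difference of PRG4 in controls was 0.89 ± 0.53 on the log2 scale (edgeR, adjusted p = 0.282). It was 1.55 ± 0.49 without subcutaneous control 902 (adjusted p = 0.0694) and 0.58 ± 0.49 without subcutaneous control 924 (adjusted p = 0.495). With the replicate number as a block, which pairs 3 of the control numbers, it was 1.17 ± 0.26 and passed (edgeR, adjusted p = 0.0118), while limma voom with the block did not call it (adjusted p = 0.114). In BPA ewes PRG4 was at 39.1, 56.3, 34.1 and 11.2 CPM in visceral 910, 918, 977 and 984 and at 14.0, 18.3, 6.93 and 15.4 CPM in subcutaneous 918, 922, 941 and 977. That difference was 1.34 ± 0.44 on the log2 scale (edgeR, adjusted p = 0.0779). Subcutaneous control 902, the highest subcutaneous library for PRG4, also had the highest summed level of 10 synovial and fascia genes. That sum was 453.8 CPM against 98.4 to 257.5 in the other 7 subcutaneous libraries. CILP (194.8 CPM) and THBS4 (187.1 CPM) made up most of it. They and SCX were highest in 902 among the subcutaneous libraries, whereas HTRA4 and COMP were lowest there. The part of such tissue in the PRG4 value was not tested.

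**Figure D2:**
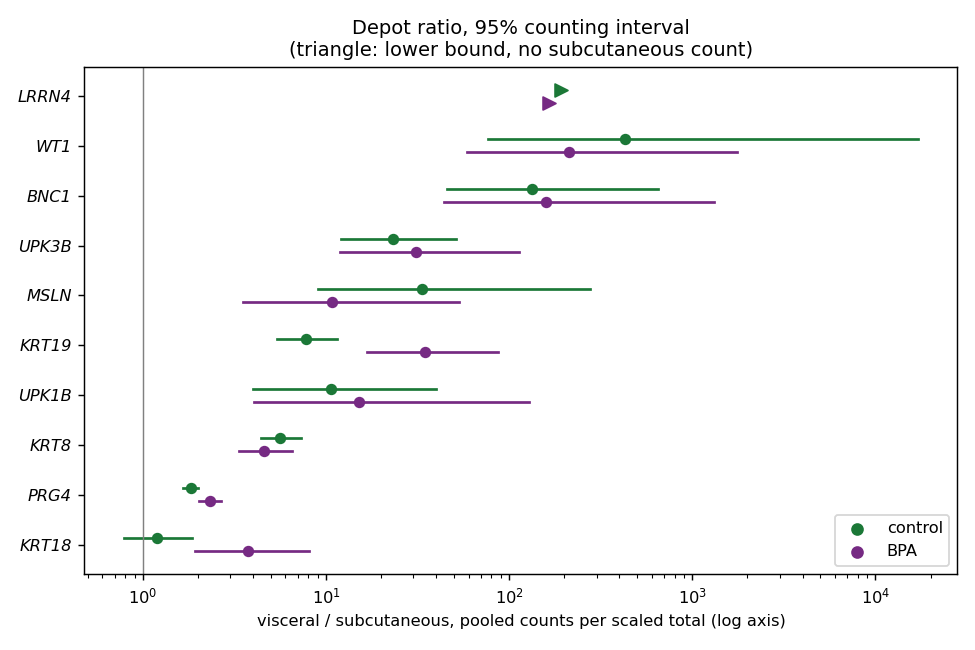
Visceral over subcutaneous level of each gene from counts pooled over the 4 libraries of a group, in control and BPA ewes, on a log axis with 95% counting intervals. WT1 (212 in BPA ewes), LRRN4 (triangles, lower bounds of 192 and 165) and BNC1 (134 and 159) lie farthest right with all libraries, and without visceral 977 the BPA values of LRRN4 and BNC1 were 67.7 and 80.5.

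The summed level of the 10 was 43.3 to 380.1 CPM in visceral and 10.4 to 56.6 CPM in subcutaneous libraries. Without PRG4, the other 9 genes summed to 32.1 to 346.0 CPM in visceral and 1.85 to 9.05 CPM in subcutaneous libraries, and the depots did not overlap. PRG4 contributed 8.96 to 39.7% of the sum in visceral and 47.1 to 88.3% in subcutaneous libraries.

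Levels of different genes were compared per length, in RPKM, which is CPM per kilobase of the deposited gene length. In visceral fat the order of mean levels was KRT19 at 10.4 ± 11.6 RPKM (SD, n = 8), PRG4 at 8.88 ± 4.09, WT1 at 8.49 ± 5.47, LRRN4 at 8.48 ± 8.89 and KRT8 at 8.26 ± 5.56. BNC1 followed at 4.44 ± 3.88 RPKM, UPK3B at 4.15 ± 3.74, MSLN at 1.75 ± 0.92, UPK1B at 1.19 ± 1.44 and KRT18 at 0.96 ± 0.51. The ranges of every neighbouring pair overlapped, so the first 5 have no settled order, and KRT19 exceeded PRG4 in only 2 of 8 libraries. Without 977 the mean of KRT19 was 6.40 ± 3.26 RPKM (SD, n = 7), below PRG4 at 9.04 ± 4.39, KRT8 at 6.997 ± 4.59 and WT1 at 6.62 ± 1.55 and above LRRN4 at 5.50 ± 3.02. Within libraries, KRT8 was above BNC1 and UPK3B above MSLN in 8 of 8, and MSLN was above UPK1B in 7 of 8. In subcutaneous fat PRG4 led at 4.17 ± 3.13 RPKM (SD, n = 8), above KRT8 in 8 of 8 libraries. KRT8 came next at 1.45 ± 0.67, then KRT19 at 0.62 ± 0.75 and KRT18 at 0.50 ± 0.30, and each of the remaining 6 genes averaged at most 0.137 RPKM.

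On the same scale, KRT19 exceeded KRT18 in all 8 visceral libraries, though which chains pair with KRT8 was not measured. KRT19 made up 62.7 to 97.3% of the sum of KRT18 and KRT19 RPKM in these libraries, lowest in BPA 984 and highest in BPA 977. KRT8 exceeded KRT18 by 2.78 to 16.0 times in RPKM in visceral libraries. The deposited gene models place KRT8 and KRT18 on opposite strands, 36176 bases apart, and the strand setting of the counting is not given in the sources used here. PRG4 shares 48 exon bases, 1.1% of its model, with TPR on the other strand, and the other 9 genes share no exon with a neighbour.

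The 8 visceral libraries differed widely among themselves in these genes. BPA replicate 977 was the highest library for 7 of the 10 (WT1, LRRN4, BNC1, UPK3B, UPK1B, KRT19 and KRT8), and BPA replicate 984 was the lowest for 8 of the 10. Compared with the mean of the other 7 visceral libraries, 977 was 6.42 times as high for UPK1B, 5.95 for KRT19, 5.34 for LRRN4, 4.14 for BNC1 and for UPK3B, and 3.25 for WT1. It was 2.45 times as high for KRT8, 1.59 for MSLN and 1.13 for KRT18, and PRG4 was at 0.867 times that mean. The 2 extreme libraries were thus both from BPA ewes, and 977 had the fewest and 984 the most counts of the visceral libraries (6.77 and 14.31 M).

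**Figure D3:**
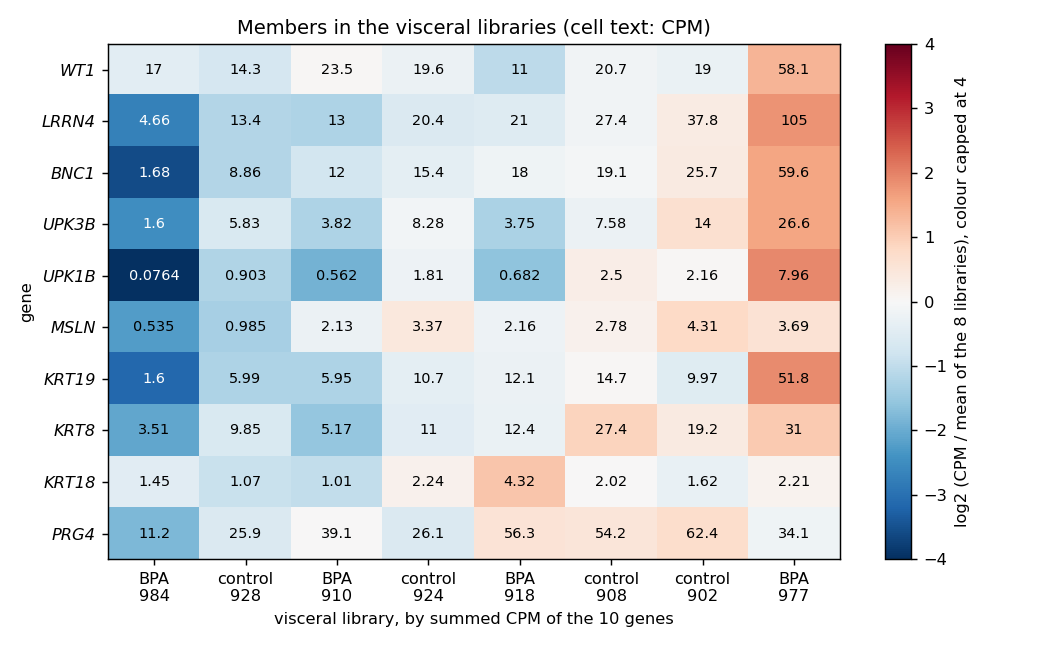
The 10 genes in the 8 visceral libraries, ordered by their summed CPM. Colour is log2 of CPM over the gene's mean of the 8 libraries and the text in each cell is CPM; BPA 984 is at the low end and BPA 977 at the high end, while the 4 control libraries lie between them.

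WT1 varied least once 977 was set aside, with 11.0 to 23.5 CPM in the other 7 libraries, a range of 2.13-fold. The same 7 libraries spanned 8.12-fold for LRRN4, 15.3-fold for BNC1, 32.7-fold for UPK1B and 4.27-fold for KRT18. The ratio of WT1 to LRRN4 CPM was 0.501, 0.755, 0.958 and 1.07 in controls 902, 908, 924 and 928. In BPA replicates 910, 918, 977 and 984 it was 1.80, 0.524, 0.553 and 3.64. In 984, WT1 was at 17.0 CPM and KRT18 at 1.45 CPM, both within the control range. LRRN4, BNC1, UPK3B, UPK1B, MSLN, KRT19, KRT8 and PRG4 were each below every visceral control library there. The share of all genes below every control in 984 is not given here.

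In the centred mean of log2 CPM over the 10 genes, 977 scored 1.55 and 984 scored -1.75, with the other 6 visceral libraries between -0.527 and 0.573. Over the 8 libraries, single members correlated with this mean at r = 0.99 (LRRN4), 0.979 (BNC1), 0.972 (KRT19), 0.967 (UPK1B), 0.936 (UPK3B), 0.929 (KRT8), 0.886 (MSLN), 0.682 (PRG4), 0.615 (WT1) and 0.414 (KRT18). Each gene is itself part of that mean, and the values describe these 8 libraries only. Outside the 10, the genes with the closest pattern were E2F1 and RHPN2 (r = 0.979 each), MAP3K21 (0.977), LOC105602884 (0.973), DSP (0.97), EPHA5 (0.969), LOC101112891 (0.966) and LOC114113690 (0.964). All 8 were highest in 977 and lowest in 984, and the likeness without those libraries was not computed. DSP, the desmosome plaque protein desmoplakin, was at 499 CPM in 977, at 33.0 in 984 and at 76.6 to 163 in the other 6, and it was higher in visceral fat of controls (log2 3.34 ± 0.24, edgeR adjusted p = 2.73e-05). DSP was also higher in visceral fat of BPA ewes (log2 5.42 ± 0.83, edgeR adjusted p = 0.00591). With BPA in subcutaneous fat DSP was lower (-1.47 ± 0.28, edgeR adjusted p = 0.0447). Without subcutaneous controls 902 and 924 that comparison called 0 genes, DSP included (edgeR, smallest adjusted p = 0.0717). LOC101112891 was called higher in visceral fat of BPA ewes only (2.35 ± 0.45, edgeR adjusted p = 0.0133). E2F1, RHPN2, MAP3K21, LOC105602884 and LOC114113690 were not called in either depot comparison.

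Other cell types also differed in these libraries. In 977 the summed adipocyte genes were the lowest of the visceral libraries (17710 against 23610 to 34680 CPM). Of the 10 adipocyte genes, 9 were lowest there. Its stromal progenitor sum was the highest (3341 against 1532 to 2136 CPM), but through the collagen gene COL1A1 alone (2433 CPM). Without COL1A1 that sum was the lowest (907.9 against 1249 to 1653 CPM), and 5 of the 9 stromal genes were lowest in 977. The lymphocyte sum was the highest (187.8 against 67.4 to 109 CPM), with PTPRC, the leukocyte surface phosphatase CD45, at 160.2 CPM, and 5 of the 8 lymphocyte genes were highest in 977. Of the 6 skeletal muscle genes TNNT3 alone had counts in 977 (74.2 CPM). Library 984 had the highest macrophage sum (1006 against 388.3 to 798.5 CPM) through the mannose receptor gene MRC1 (727 CPM), without which it was within the range of the others (278.7 against 190.6 to 331.5). With every library thinned to 3046126 counts, the 10 genes together had 1126 counts in 977 and 110 in 984. The other visceral libraries then had 265 to 568. The part of tissue composition or depth in the levels of the 10 genes in 977 and 984 was not tested.

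A wider list of 28 mesothelial genes, 23 of them in the table, showed a more mixed depot pattern. In controls, 19 could be tested, and 7 were called higher in visceral fat and 2 lower, against 7.17% and 6.16% of all tested genes. The median log2 difference was 0.56 against -0.01 for all tested genes. In BPA ewes, 15 could be tested, and 5 were called higher and 0 lower, against 5.13% and 3.94% of all tested genes. The median there was 0.80 against 0.02. TCF21, a transcription factor of visceral mesoderm, was at 10.7 ± 1.17 CPM in visceral controls and 11.4 ± 4.16 CPM in visceral BPA ewes (SD, n = 4) and had 0 counts in all subcutaneous libraries. TCF21 was at least 84.2-fold higher in visceral fat of controls and at least 66.2-fold higher in that of BPA ewes. CRB2, a polarity protein, also had 0 subcutaneous counts and was at least 18.7-fold higher in visceral fat of controls.

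Of the other wider-list genes called in controls, ALDH1A2, which makes retinoic acid, was higher by 2.97 ± 0.30 on the log2 scale (54.7 against 7.04 CPM; edgeR, adjusted p = 0.000268). The Wnt amplifier RSPO1 was higher by 3.22 ± 0.68, the matrix protein gene EFEMP1 by 1.69 ± 0.17, the claudin gene CLDN15 by 1.54 ± 0.24 and the membrane linker gene EZR by 0.73 ± 0.16. The cadherin gene CDH3 was lower by -1.11 ± 0.27 and the T-box gene TBX18 by -0.75 ± 0.20. In BPA ewes ALDH1A2, CLDN15, EFEMP1 and TCF21 were called higher as well, together with THBD (1.19 ± 0.26), the thrombin receptor thrombomodulin. CALB2, the calretinin gene used to stain mesothelium in human tissue, and GATA4 had at most 2 counts in any library. In visceral 977, CRB2 (47.2 against 0.306 to 4.22 CPM), GATA6 (54.9 against 6.73 to 17.5) and RSPO1 (28.03 against 1.30 to 9.78) were also high, whereas TCF21 (15.2 against 6.37 to 14.4) was close to the rest.

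Keratins and uroplakins also mark other epithelia, so lists for these were read beside the 10 genes. Of 14 squamous epithelium genes, which cover rumen and skin, KRT5, KRT14, KRT6A, DSG1, IVL and LY6D had 0 counts in all 16 libraries. The summed squamous level was 2.75 to 19.4 CPM in visceral and 5.51 to 20.7 CPM in subcutaneous fat. The 12 general epithelial genes summed to 6.48 to 16.9 CPM in visceral and 6.78 to 21.7 CPM in subcutaneous fat, and so overlapped between the depots. The 7 urothelium and kidney genes summed to 1.48 to 7.38 CPM in visceral and 0.447 to 4.90 CPM in subcutaneous fat. For the remaining lists the number called higher and lower in visceral fat of controls, of those tested, was 3 and 0 of 10 adipocyte genes, 2 and 0 of 7 blood endothelial, 0 and 4 of 6 lymphatic endothelial, and 0 and 2 of 9 stromal progenitor genes. It was 1 and 0 of 6 macrophage, 0 and 0 of 5 lymphocyte, 0 and 0 of 9 smooth muscle, 0 and 1 of 1 skeletal muscle, and 2 and 1 of 8 synovial and fascia genes. Of all tested genes, 7.17% were called higher and 6.16% lower in visceral fat of controls.

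The comparison of BPA with control in visceral fat asks whether prenatal exposure left a change in these genes. None of the 10 was called in either direction, nor was any of the 14774 genes tested (edgeR, 0%). Unadjusted p-values under 0.05 were reached by 1103 genes, 0 of the 10 among them, and DESeq2 called 5 genes, 0 of the 10 among them. None of the 10 separated the groups without overlap, which 1.65% of all genes with a count did upwards and 1.7% downwards. WT1 was at 18.4 ± 2.84 CPM in controls and 27.4 ± 21.1 CPM in BPA ewes (SD, n = 4), and LRRN4 at 24.8 ± 10.4 and 36.0 ± 46.6 CPM. Without 977 the BPA values were 17.1 ± 6.23 CPM for WT1 and 12.9 ± 8.19 CPM for LRRN4 (SD, n = 3).

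The log2 differences in visceral fat were 0.59 ± 0.43 for WT1, 0.56 ± 0.76 for LRRN4, 0.42 ± 0.75 for BNC1, 0.01 ± 0.74 for UPK3B and 0.31 ± 1.003 for UPK1B. They were 0.80 ± 0.79 for KRT19, 0.38 ± 0.52 for KRT18, -0.37 ± 0.61 for KRT8, -0.43 ± 0.61 for MSLN and -0.25 ± 0.44 for PRG4, with adjusted p from 0.717 to 0.999 (edgeR). The estimate was above 0 for 7 of the 10, with a median of 0.35 against 0.002 for all genes.

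One library set this direction. Without visceral BPA 977 the estimate was above 0 for 1 of the 10, KRT18, and the median was -0.79 against -0.008 for all genes. The 3 remaining BPA libraries then averaged 3.06 ± 1.26 CPM of UPK3B (SD, n = 3) against 8.93 ± 3.55 CPM in controls (n = 4). For UPK3B and UPK1B all 3 lay below every control, and the share of all genes that did so is not given here. The UPK3B difference without 977 was -1.56 ± 0.41 on the log2 scale (edgeR, unadjusted p = 0.00355, adjusted p = 0.989). UPK1B gave -2.11 ± 0.71 and KRT8 -1.28 ± 0.48 without 977, with the same adjusted p of 0.989, whereas WT1 gave -0.11 ± 0.26. Without BPA 984 instead, the estimate was above 0 for 8 of the 10 and the median was 0.64. None of the 10 was called in either case.

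**Figure D4:**
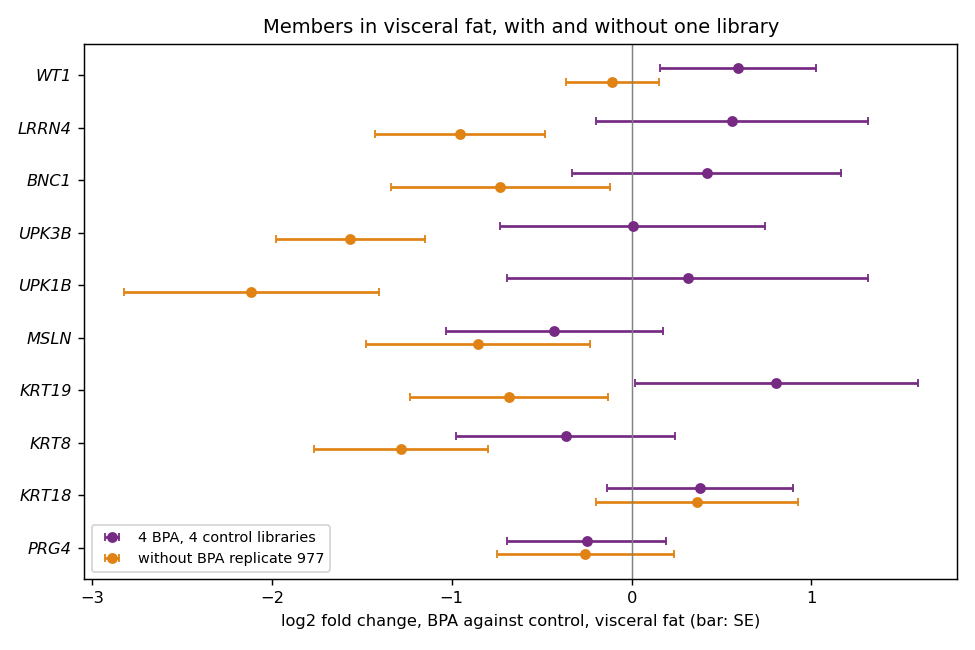
Log2 fold change of BPA against control in visceral fat for the 10 genes (bars: SE), with all 8 libraries and without BPA replicate 977. When 977 is left out, KRT18 and PRG4 hardly move, the others shift down, and 9 of 10 points are below 0.

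In subcutaneous fat, BPA against control could be tested for KRT8 and PRG4 only, and neither was called, against 0.709% of all 13535 genes (edgeR). KRT8 was at 2.87 ± 1.31 CPM in controls and 2.39 ± 1.25 CPM in BPA ewes (SD, n = 4), a log2 difference of -0.26 ± 0.46 (adjusted p = 0.841). PRG4 was at 22.7 ± 18.9 and 13.7 ± 4.85 CPM (SD, n = 4), a difference of -0.70 ± 0.54 (adjusted p = 0.593), which came to -0.03 without control 902. With no filter, 9 of the 10 could be tested and 0 were called, against 0.551% of all genes called higher and 0.257% lower. There KRT18 gave -1.26 ± 0.74 (34 counts in controls and 10 in BPA ewes; adjusted p = 0.540) and KRT19 -1.61 ± 1.07 (31 and 7 counts; adjusted p = 0.572). The other 6 genes had at most 4 counts in any subcutaneous library.

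Whether the BPA difference itself differed between the depots was tested in one fit of all 16 libraries. None of the 10 was called, nor was any of 14793 genes (edgeR, 0%), while 917 genes, 0 of the 10 among them, had an unadjusted p under 0.05 and DESeq2 called 11 genes. The smallest p among the 10 was that of KRT18, whose BPA difference was 1.64 ± 0.88 higher in visceral than in subcutaneous fat on the log2 scale (unadjusted p = 0.079, adjusted p = 0.859). KRT19 gave 2.43 ± 1.57 (adjusted p = 0.92) and PRG4 0.46 ± 0.77 (adjusted p = 0.999). For LRRN4 no such difference could be estimated, since its subcutaneous counts were all 0.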

How the data were processed

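RNA of 16 libraries was measured by sequencing after ribosomal depletion and low-input library preparation, per the labels' protocols. Per the submitters' processing notes, quality was read with FastQC 0.11.5 and MultiQC 0.9, and STAR 2.6.0c and featureCounts (Subread 1.6.1) were used. Values in the deposited table are counts per gene and library. The name of the table calls them normalized, but 0 values are not whole and totals differ, so raw counts were assumed. For build, annotation and strand the entry is "not given in the sources used here", and positions are left out. Sequences were not used here.

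Genes were filtered with filterByExpr (minimum count 10, total 15), scaled with TMM and tested with edgeR 4.0.16 (glmQLFit, glmQLFTest, two-sided) in R 4.3.3, on the 8 libraries compared, or all 16 for the difference between BPA effects. Benjamini-Hochberg adjustment ran over all genes tested, and genes under 0.05 were called. The test was checked on simulated counts. CPM and RPKM were computed from the counts, the latter with the deposited gene lengths, and log2 CPM used a prior count of 2. Exact 95% intervals of pooled ratios and floors of 3 counts per group cover counting error.

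Named were all 10 genes, wider-list genes called in a depot comparison, the 8 genes with the closest visceral pattern, and, from the lists of other cells, genes at 0 or of high level; values are given for part of these. The members and lists were chosen with earlier results of these data known. Numbers in the titles were checked as pairs by the correlation of deviations from group means. It was 0.287, 0.40 and 0.332 for controls 902, 924 and 928, and 0.167 and 0.0313 for BPA 918 and 977. Except for 977, the libraries of a number matched each other best within their treatment. The main tests used no pairing, and the replicate block, run as an alternative, gave every number a block. With edgeR, only numbers found in both depots inform the blocked depot difference. These are 902, 924 and 928 in controls and 918 and 977 in BPA ewes.

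Alternatives were DESeq2 1.42.0, its size factors, no filter, at least 50 counts in 4 libraries, all 16 libraries, limma 3.58.1 (voom), a block for the replicate number, and each library left out in turn. Thinning to 3046126 counts per library and omission of subcutaneous controls 902 and 924 together were chosen after seeing the data.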

Additional observations from a re-analysis of the deposited data

Results flagged for a closer look

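Of 38 combinations of a gene and a group of 4 libraries, 10 had a library far from the other 3, by a gap over range above Dixon's critical value. The rate of about 1 in 20 flagged by chance holds for normally distributed values, not for counts near 0. A group with counts in only 1 library is flagged whatever its count. In visceral BPA replicate 977, LRRN4 was at 105.2 CPM (4.66 to 21.0 in the other 3), UPK3B at 26.6 CPM (1.604 to 3.82) and UPK1B at 7.97 CPM (0.0764 to 0.682). KRT8 was at 4.83 CPM in subcutaneous control 902, against 2.20 to 2.25 in the other controls. The remaining 6 rest on 0 to 4 counts. WT1 was at 0.204 CPM in subcutaneous control 931, BNC1 at 0.473 CPM in control 928 and 0.448 CPM in BPA 977, UPK1B at 0.678 CPM in control 924 and MSLN at 0.315 CPM in control 928, where the other 3 libraries of each group were at 0. MSLN was at 0.0 CPM in subcutaneous BPA 941, where the others had 1 count each.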

How the results depend on the processing

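Counts of the 10 genes called by depot in controls stayed at 5 to 8 (6 in the report), apart from limma voom without a block, which called 3. In BPA ewes (2 in the report) DESeq2 called 4, no filter 7, all 16 libraries 7, limma voom without a block 1, and leaving out single libraries 2 to 7. Among the BPA numbers, the libraries numbered 977 did not match each other best. In BPA ewes the edgeR replicate block called 4 of the 10 (KRT8 adjusted p = 0.000919, PRG4 0.00502) and 892 of all genes. That fit rests only on numbers 918 and 977, as no other BPA number occurs in both depots. The limma voom replicate block called 2 of the 10 there and 2300 of all genes. In controls the replicate block gave 2631 genes with edgeR and 2348 with limma voom, and changed no call among the 10 with edgeR other than PRG4. No paired analysis was possible for BPA against control because those groups share no number. None of the 10 was called in either BPA comparison, or in the depot difference in BPA effect, under the alternatives run.

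Among all genes, the control depot count (1928) was 1138 without subcutaneous controls 902 and 924 and 1043 to 1755 with single libraries left out, lowest without visceral 928 (1245 without visceral 902, 1216 without visceral 908, 1239 without subcutaneous 924). The BPA depot count (1250) was 2197 with DESeq2, 2408 in all 16 libraries, 1971 with limma voom and 369 to 2206 with single libraries left out, lowest without subcutaneous 922 and highest without visceral 977. BPA in visceral fat gave 5 genes with DESeq2. BPA in subcutaneous fat (96) gave 464 with DESeq2, 173 with no filter, 54 with at least 50 counts, 46 in all 16 libraries, 1 with limma voom, 0 without controls 902 and 924 (1576 at an unadjusted p under 0.05), and 32 to 128 with single libraries left out. The depot difference in BPA effect gave 11 with DESeq2.

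Uncalled estimates changed sign. For BPA in visceral fat, limma voom gave UPK1B -1.50, KRT19 -0.45, LRRN4 -0.44, BNC1 -0.67 and UPK3B -1.02, and no filter gave UPK3B -0.032. Leaving out single libraries gave -0.73 to 0.81 for BNC1, -0.15 to 0.62 for KRT18, -0.68 to 1.19 for KRT19, -0.96 to 0.93 for LRRN4, -0.57 to 0.049 for PRG4, -2.11 to 0.74 for UPK1B, -1.56 to 0.36 for UPK3B and -0.11 to 0.85 for WT1. In subcutaneous fat KRT8 was 0.12 without controls 902 and 924 and -0.63 to 0.11 without single libraries. For the depot difference in BPA effect, limma voom gave UPK1B -1.95 (-1.45 with the replicate block), PRG4 -0.074, LRRN4 -0.90, BNC1 -1.01 and UPK3B -0.45. Without controls 902 and 924 it was -2.77 for UPK1B, -1.22 for KRT19 and 0.25 for WT1, and thinning gave 0.016 for KRT8. Without single libraries it was -2.65 to 3.59 for BNC1, -0.99 to 0.29 for KRT8, -0.94 to 0.92 for LRRN4, -0.21 to 0.76 for PRG4, -2.75 to 1.29 for UPK1B and -0.87 to 1.21 for UPK3B. The LRRN4 values listed for the depot difference in BPA effect do not estimate it, since LRRN4 had no count in any subcutaneous library. The cause of the sign changes was not tested. In subcutaneous libraries 6 of the 10 genes had at most 4 counts. With every library thinned to 3046126 counts, WT1 had 33 to 151 counts in visceral libraries against 0 or 1 in subcutaneous ones, and LRRN4 17 to 290 against 0.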
